A study of Mus musculus with 12 samples.

Results

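A group of 8 receptor genes of myeloid cells, most of them inhibitory, was followed in high glucose and CD200Fc: *Pirb*, *Lilrb4a*, *Lilr4b*, *Pilra*, *Cd300lf*, *Cd300a*, *Sirpa* and *Siglece*. They were picked by symbol, and all 8 were found among the 55487 gene IDs of the count table. *Lilr4b* is the exception by function, since its protein lacks the inhibitory motif of its neighbour *Lilrb4a*. RNA came from BV2, a line of immortalised mouse microglia, by the source labels. The 4 groups were high glucose medium with CD200Fc (HG+CD200Fc), high glucose alone (HG), normal glucose medium with CD200Fc (NG+CD200Fc) and normal glucose alone (NG), with 3 libraries each. CD200Fc, given at 50 ng/mL, joins the ligand CD200 to an antibody Fc part and binds CD200R1, an inhibitory receptor of myeloid cells. The labels give neither the glucose concentrations nor the duration, and no group received an Fc control or an osmotic control. BV2 is 1 line, and nothing says that the 3 libraries of a group were separate cultures. The p-values therefore refer to the variation among these libraries, part or all of which may be technical.

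Most receptors of this kind carry immunoreceptor tyrosine-based inhibitory motifs in their cytoplasmic tails. When a kinase of the Src family phosphorylates these motifs, they recruit the phosphatases SHP-1 and SHP-2, encoded by *Ptpn6* and *Ptpn11*, which dampen signals from activating receptors. Many have activating relatives encoded beside them, which pair with the adaptors DAP12 (*Tyrobp*) or the Fc receptor gamma chain (*Fcer1g*). On microglia and macrophages such receptors restrain phagocytosis and cytokine release.

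Libraries held 2.15e+07 to 3.19e+07 counts. HG replicate 2 stood apart, with 1.49% of its counts on ribosomal RNA genes against at most 0.119% in any other library. Most of the receptor values and list counts that rest on the HG libraries are also given without HG replicate 2. All 16 markers of microglia and macrophages averaged at least 1 CPM (read counts scaled by library size after TMM normalisation) in each group. Their sum was 4160 to 4378 CPM in HG+CD200Fc, 4594 to 5199 CPM in HG, 4445 to 4586 CPM in NG+CD200Fc and 4692 to 4917 CPM in NG. In HG+CD200Fc relative to HG, 9 of them fell and 1 rose, with or without HG replicate 2 (edgeR's quasi-likelihood test). Of all genes, 8.3% fell and 9.46% rose there. In HG relative to NG, where 24.6% of all genes passed, 7 markers were higher and 3 lower, or 7 and 2 without HG replicate 2. Of these, *Adgre1* fell by 0.88 on the log2 scale in HG+CD200Fc relative to HG, *C1qb* by 1.34 and *Aif1* by 0.70, while *Cx3cr1* rose by 1.51 and *Csf1r* had a log2 difference of 0.083 that did not pass. The labels also describe dissected retinas and sorted GFP-positive cells, while the source is BV2. Of 14 retinal neuron markers only *Pde6b*, *Prkca* and *Rbpms* averaged 1 CPM or more. The sum of the 14 was 56.3 to 62.8 CPM in HG+CD200Fc, 45.6 to 47.5 CPM in HG, 45.4 to 57.2 CPM in NG+CD200Fc and 50.2 to 56.4 CPM in NG, and in HG+CD200Fc relative to HG *Pde6b* rose by 0.35 and *Prkca* by 0.36 on the log2 scale. T cell markers summed to 5.77 to 8.02 CPM in HG+CD200Fc, 8.68 to 11.2 CPM in HG, 6.18 to 7.61 CPM in NG+CD200Fc and 6.78 to 7.2 CPM in NG, with 2 of 7 genes at 1 CPM or more. Neutrophil and mast cell markers summed to 1.59 to 4.62 CPM over the 12 libraries, with 4 of 9 genes at 0 throughout. Endothelial markers summed to 468 to 530 CPM in HG+CD200Fc, and 398 to 447 CPM in the other groups, with 6 of 9 genes at 1 CPM or more. They did not move together, since in HG+CD200Fc relative to HG 1 of 7 tested rose and 2 fell (edgeR's quasi-likelihood test). *Flt1* rose by 0.89 on the log2 scale, while *Vwf* fell by 0.50 and *Tie1* by 0.29. Müller glia and astrocyte markers summed to 148 to 174 CPM, with 4 of 7 at 1 CPM or more, and B cell markers to at most 3.47 CPM, with 0 of 5 at that level. The part of these markers in the receptor values was not tested. RNA per cell and the number of cells cannot be told apart in these libraries.

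Upstream sequences are shown for the 4 receptor genes that fell most in HG+CD200Fc relative to HG among those in the RefSeq promoter table. Each is the 250 bases before the RefSeq start on GRCm38.p6, written 5′ to 3′ on the gene's strand. *Pirb* is at chr7:3720383-3720632, minus strand, *Pilra* at chr5:137836279-137836528, minus strand, *Cd300lf* at chr11:115133993-115134242, minus strand, and *Lilr4b* at chr10:51480362-51480611, plus strand. Capitals mark matches, on either strand, to GAGGAA, a purine-rich core bound by ETS factors such as PU.1, to TTCNNNGAA, a STAT element, or to the interferon response element, in which GAAA is followed by any 2 bases and a second GAAA. A match on the opposite strand reads TTCCTC.
Pirb: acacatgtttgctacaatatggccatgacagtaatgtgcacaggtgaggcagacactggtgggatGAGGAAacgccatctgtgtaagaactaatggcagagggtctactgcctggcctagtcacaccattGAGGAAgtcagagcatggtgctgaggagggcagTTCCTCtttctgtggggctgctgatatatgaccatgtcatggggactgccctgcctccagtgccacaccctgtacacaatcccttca
Pilra: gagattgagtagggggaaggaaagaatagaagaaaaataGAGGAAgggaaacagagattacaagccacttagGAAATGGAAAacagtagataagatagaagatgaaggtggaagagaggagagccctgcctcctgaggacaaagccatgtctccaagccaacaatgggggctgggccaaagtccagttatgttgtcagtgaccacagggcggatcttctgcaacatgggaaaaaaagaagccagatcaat
Cd300lf: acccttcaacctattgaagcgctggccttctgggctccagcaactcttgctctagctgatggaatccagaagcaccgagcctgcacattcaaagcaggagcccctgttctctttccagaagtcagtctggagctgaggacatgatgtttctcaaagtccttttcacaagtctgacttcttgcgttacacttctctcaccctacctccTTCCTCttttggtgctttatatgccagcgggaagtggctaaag
Lilr4b: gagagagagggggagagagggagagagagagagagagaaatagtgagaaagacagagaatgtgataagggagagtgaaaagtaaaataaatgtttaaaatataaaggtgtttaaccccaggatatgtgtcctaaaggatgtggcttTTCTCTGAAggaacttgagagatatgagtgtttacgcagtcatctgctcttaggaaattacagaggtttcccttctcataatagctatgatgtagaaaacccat

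The *Pirb* window held 3 copies of GAGGAA, *Cd300lf* held 1, and *Pilra* held 1 together with 1 interferon response element. *Lilr4b* held no GAGGAA and 1 TTCNNNGAA. Of the 6 receptor genes in the table, 5 held GAGGAA, among them *Cd300a* with 1 copy and *Siglece* with 3. Over 32851 RefSeq promoters of the same length 23.3% held GAGGAA, 2.98% the interferon response element and 7.02% TTCNNNGAA. CACGTG, the E-box letters, occurred in 0 of the 6 windows and in 6.02% of all promoters. The table matched *Pirb*, *Lilr4b*, *Cd300a*, *Cd300lf*, *Siglece* and *Pilra*. A match is a stretch of letters, and binding was not measured.

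*Pirb* (ENSMUSG00000058818, chr7:3711409-3720391, minus strand, GRCm38) encodes PIR-B, the mouse leukocyte immunoglobulin-like receptor that binds MHC class I and Nogo. Its libraries held 8.22, 7.63 and 6.6 CPM in HG+CD200Fc, 23.6, 26.3 and 22 CPM in HG, 8.25, 7.1 and 7.83 CPM in NG+CD200Fc, and 7.16, 6.18 and 6.42 CPM in NG. The 3 HG libraries stood alone at the top, and the other 3 groups lay close together, with HG+CD200Fc overlapping both normal glucose groups. These levels rest on 144 to 220 counts in HG+CD200Fc libraries, 559 to 694 in HG, 181 to 252 in NG+CD200Fc and 158 to 169 in NG.

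*Pirb* was thus 3.64-fold higher in HG than in NG (log2 fold change 1.86 ± 0.12, standard error), and 1.79 on the log2 scale without HG replicate 2. The genes were assembled with earlier results of HG vs NG in view, so this difference is a description and carries no test. *Pirb* fell 3.19-fold in HG+CD200Fc relative to HG (log2 fold change -1.68 ± 0.12, adjusted p = 1.45e-10, edgeR's quasi-likelihood test with Benjamini-Hochberg adjustment over 19182 genes). Without HG replicate 2 this log2 fold change was -1.60. In normal glucose the difference with CD200Fc was 0.23 on the log2 scale, with a 95% interval of -0.029 to 0.49. Comparisons against HG or NG share those libraries with HG vs NG, and so are not independent of how the genes were chosen.

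**Figure D1:**
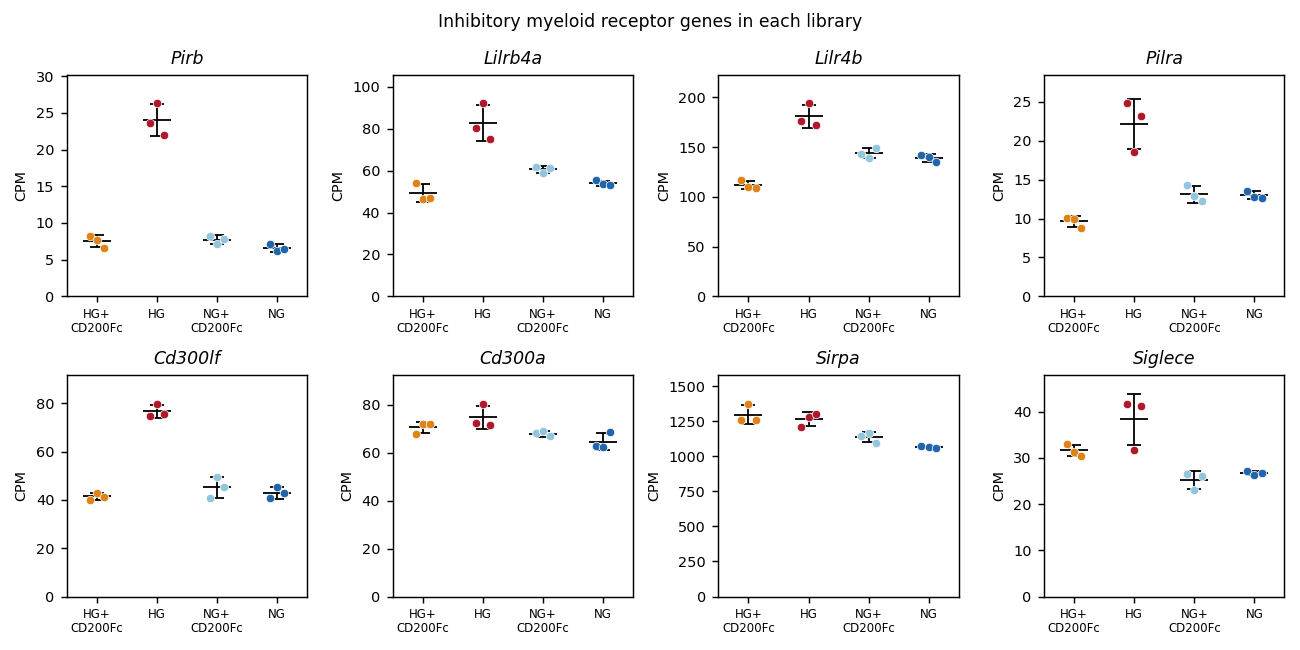
Level of each receptor gene in CPM (vertical axis, starting at 0) in each library, with groups along the horizontal axis. Dots are libraries, and horizontal lines with bars are mean ± SD of 3. The 3 HG libraries of *Pirb* lie between 22 and 26.3 CPM and all 9 others at or below 8.25 CPM. For *Sirpa* both high glucose groups lie above both normal glucose groups, and for *Cd300a* neighbouring groups overlap.

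*Lilrb4a* (ENSMUSG00000112148, chr10:51490956-51496611, plus strand) encodes gp49B, an inhibitory receptor with cytoplasmic inhibitory motifs. It had 54.1, 46.3 and 47 CPM in HG+CD200Fc, 80.6, 92.1 and 75.1 CPM in HG, 61.8, 58.8 and 61.2 CPM in NG+CD200Fc, and 55.4, 53.5 and 53.2 CPM in NG. HG was highest and did not overlap any other group, while HG+CD200Fc overlapped NG only and NG+CD200Fc lay just above NG. The gene was 1.53-fold higher in HG than in NG, and it fell 1.68-fold in HG+CD200Fc relative to HG (log2 fold change -0.75 ± 0.072, adjusted p = 2.22e-08, edgeR's quasi-likelihood test).

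*Lilr4b* (ENSMUSG00000112023, chr10:51480632-51486703, plus strand) lies just before it and encodes the gp49A form. Its libraries had 117, 110 and 109 CPM in HG+CD200Fc, 176, 194 and 172 CPM in HG, 143, 139 and 149 CPM in NG+CD200Fc, and 142, 140 and 135 CPM in NG. HG was again highest, and all 3 HG+CD200Fc libraries lay below every library of the normal glucose groups. *Lilr4b* was 1.3-fold higher in HG than in NG and fell 1.62-fold in HG+CD200Fc relative to HG (log2 fold change -0.69 ± 0.057, adjusted p = 1.55e-09, edgeR's quasi-likelihood test).

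*Pilra* (ENSMUSG00000046245, chr5:137821952-137836281, minus strand) encodes the inhibitory member of the paired immunoglobulin-like type 2 receptors, which bind sialylated O-glycoproteins. It had 10.1, 10 and 8.8 CPM in HG+CD200Fc, 24.8, 18.6 and 23.2 CPM in HG, 14.3, 12.9 and 12.2 CPM in NG+CD200Fc, and 13.5, 12.8 and 12.6 CPM in NG. The order was HG, then both normal glucose groups overlapping each other, then HG+CD200Fc below all of them. *Pilra* was 1.71-fold higher in HG than in NG and fell 2.3-fold in HG+CD200Fc relative to HG (log2 fold change -1.20 ± 0.12, adjusted p = 2.27e-08, edgeR's quasi-likelihood test).

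*Cd300lf* (ENSMUSG00000047798, chr11:115116214-115133992, minus strand) encodes CD300f, a lipid-binding receptor with inhibitory motifs. It had 40, 42.9 and 41.4 CPM in HG+CD200Fc, 74.8, 79.8 and 75.5 CPM in HG, 40.8, 49.5 and 45.3 CPM in NG+CD200Fc, and 40.6, 45.3 and 42.7 CPM in NG. HG stood alone, as for *Pirb*, and the other 3 groups overlapped. The gene was 1.79-fold higher in HG than in NG and fell 1.85-fold in HG+CD200Fc relative to HG (log2 fold change -0.89 ± 0.071, adjusted p = 8.40e-10, edgeR's quasi-likelihood test).

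*Siglece* (ENSMUSG00000030474, chr7:43651070-43660161, minus strand) encodes an inhibitory receptor for sialic acid. It had 32.9, 31.2 and 30.5 CPM in HG+CD200Fc, 41.7, 31.8 and 41.3 CPM in HG, 26.6, 23 and 26.1 CPM in NG+CD200Fc, and 27.2, 26.2 and 26.7 CPM in NG. Both high glucose groups lay above both normal glucose groups, and HG replicate 2 lay within HG+CD200Fc. *Siglece* fell 1.21-fold in HG+CD200Fc relative to HG (log2 fold change -0.28 ± 0.091, adjusted p = 0.0324, edgeR's quasi-likelihood test), and its log2 fold change was -0.40 without HG replicate 2 (adjusted p = 0.00136 by the same test). This call was lost without HG+CD200Fc replicate 2 or 3, or HG replicate 1 or 3, with adjusted p up to 0.173 in edgeR's quasi-likelihood test.

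*Sirpa* (ENSMUSG00000037902, chr2:129592835-129632228, plus strand) encodes the receptor for CD47, the signal that protects cells from phagocytosis. Per length it was by far the most abundant of the 8, at 264 CPM per kb of exon in HG+CD200Fc, against at most 33.2 CPM per kb for any other member in any group. It had 1259, 1374 and 1259 CPM in HG+CD200Fc, 1207, 1279 and 1302 CPM in HG, 1144, 1165 and 1096 CPM in NG+CD200Fc, and 1071, 1066 and 1062 CPM in NG. The high glucose groups overlapped each other at the top, with NG+CD200Fc below them and NG lowest. Its log2 difference between HG+CD200Fc and HG was 0.039, with a 95% interval of -0.063 to 0.14, and 0.048 without HG replicate 2.

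*Cd300a* (ENSMUSG00000034652, chr11:114890041-114904654, plus strand) encodes a phospholipid-binding inhibitory receptor from the gene cluster of *Cd300lf*. It had 67.9, 71.9 and 71.9 CPM in HG+CD200Fc, 72.4, 80.5 and 71.8 CPM in HG, 68.1, 69.2 and 66.9 CPM in NG+CD200Fc, and 62.9, 62.6 and 68.6 CPM in NG. Neighbouring groups overlapped all along this order, and HG and NG did not. The log2 difference between HG+CD200Fc and HG was -0.087, with a 95% interval of -0.21 to 0.039, and -0.032 without HG replicate 2.

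Of the 8 genes, 8 had all 3 HG libraries above all 3 NG libraries, a pattern shown by 19.9% of all genes tested. Since the genes were chosen with HG vs NG in view, nothing is read from this count. Their median log2 difference between HG and NG was 0.57, against 0.021 over all genes, and it ran from 0.21 for *Cd300a* up to 1.86 for *Pirb*. HG replicate 2 was the highest HG library for *Pirb*, *Lilrb4a*, *Lilr4b*, *Cd300lf* and *Cd300a*, and the lowest for *Pilra* and *Siglece*. Without it the log2 differences were 0.53 for *Lilrb4a*, 0.33 for *Lilr4b*, 0.89 for *Pilra*, 0.81 for *Cd300lf*, 0.16 for *Cd300a*, 0.23 for *Sirpa* and 0.64 for *Siglece*.

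With CD200Fc in high glucose, 6 of 8 receptor genes fell and 0 rose, where 8.3% of all genes fell and 9.46% rose (edgeR's quasi-likelihood test, adjusted p under 0.05). Without HG replicate 2 the count was also 6, with log2 fold changes of -1.31 for *Pilra*, -0.86 for *Cd300lf*, -0.66 for *Lilrb4a* and -0.64 for *Lilr4b*. *Pirb*, *Pilra*, *Cd300lf*, *Lilrb4a* and *Lilr4b* had all 3 HG+CD200Fc libraries below all 3 HG libraries, which 16% of all genes showed. The median log2 fold change of the 8 was -0.72, against -0.021 over all genes. This comparison uses the same HG libraries as HG vs NG, which was in view when the genes were chosen. A fall from HG is favoured by that choice, so nothing is read from these counts or their distance from the shares of all genes.

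In normal glucose, 0 of 8 receptor genes and 0 of 19182 genes passed with CD200Fc (0% of genes, edgeR's quasi-likelihood test). DESeq2 and limma voom also called 0 genes, and at an unadjusted p under 0.05 edgeR's test held 1147 genes, 1 of them a receptor gene, *Lilrb4a*. As for *Sirpa*, its 3 NG+CD200Fc libraries lay above the NG libraries, which 5.71% of all genes showed, with a log2 difference of 0.17 and a 95% interval of 0.02 to 0.31. The intervals of the other 7 all included 0, and the widest, for *Pirb*, ended at 0.49. The smallest adjusted p among the 8 was 0.816.

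The difference between the effects of CD200Fc in high and in normal glucose contains the HG vs NG difference with its sign turned, so its values are given as a description for the receptor genes. It passed, in the lower direction, for 5 of the 8 genes, where 3.58% of all genes were lower (edgeR's quasi-likelihood test of the interaction), and nothing is read from this count. On the log2 scale the difference was -1.91 ± 0.17 for *Pirb*, -1.22 ± 0.16 for *Pilra* and -0.97 ± 0.1 for *Cd300lf*. It was -0.91 ± 0.1 for *Lilrb4a* and -0.74 ± 0.08 for *Lilr4b*. The 95% intervals were -0.47 to 0.068 for *Siglece*, -0.34 to 0.019 for *Cd300a* and -0.20 to 0.093 for *Sirpa*. Without HG replicate 2 the values of the 5 ran from -1.83 for *Pirb* to -0.69 for *Lilr4b*.

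The high glucose comparison under CD200Fc sets only HG+CD200Fc and NG+CD200Fc libraries against each other, although the HG and NG libraries enter the model's estimate of the spread. There *Lilr4b*, *Lilrb4a* and *Pilra* were lower and *Siglece* and *Sirpa* were higher, while 8.3% of all genes passed, 4.65% higher and 3.65% lower (edgeR's quasi-likelihood test). In HG+CD200Fc relative to NG+CD200Fc the log2 fold changes were -0.36 ± 0.057 for *Lilr4b* (adjusted p = 0.00126), -0.30 ± 0.072 for *Lilrb4a* (adjusted p = 0.0115) and -0.44 ± 0.12 for *Pilra* (adjusted p = 0.0202), all from edgeR's quasi-likelihood test. They were 0.32 ± 0.093 for *Siglece* (adjusted p = 0.0308) and 0.19 ± 0.05 for *Sirpa* (adjusted p = 0.0169) by the same edgeR test. *Pirb* did not pass, at -0.043 with a 95% interval of -0.30 to 0.22, and neither did *Cd300lf* at -0.13 or *Cd300a* at 0.052. The 5 calls dropped to 1 without HG+CD200Fc replicate 2 or NG+CD200Fc replicate 1, and to 2 without HG+CD200Fc replicate 3 or NG+CD200Fc replicate 3. *Lilr4b* was the gene that passed in each of these 4 fits, and *Siglece* did not pass without any 1 of the 6 libraries compared.

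**Figure D2:**
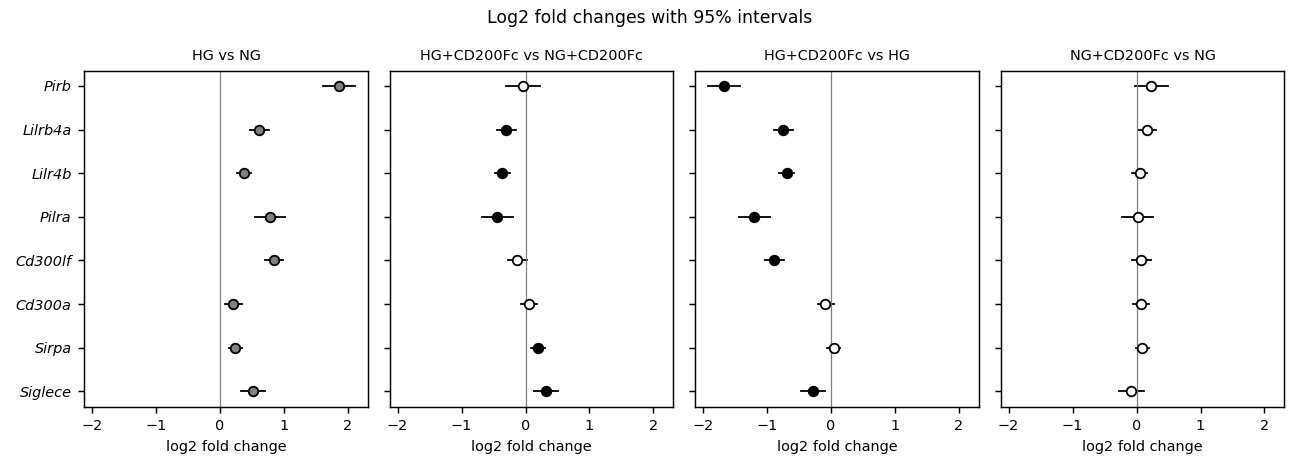
Log2 fold change of each receptor gene (horizontal axis) with its 95% interval in 4 comparisons, 1 panel each. Black points passed an adjusted p of 0.05, white points did not, and grey points in HG vs NG carry no test. *Pirb* lies at 1.86 in HG vs NG and at -1.68 in HG+CD200Fc vs HG, and no point is black in NG+CD200Fc vs NG.

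Set against cells in normal glucose without CD200Fc, HG+CD200Fc libraries were higher for *Sirpa* and lower for *Lilr4b* and *Pilra*, while 9.56% of all genes were higher and 10.8% lower (edgeR's quasi-likelihood test). The log2 fold changes were 0.28 for *Sirpa* (adjusted p = 2.73e-04), -0.31 for *Lilr4b* (adjusted p = 3.55e-04) and -0.43 for *Pilra* (adjusted p = 0.0115) in edgeR's quasi-likelihood test. *Pirb* had a log2 difference of 0.19 with a 95% interval of -0.076 to 0.45, and *Cd300lf* one of -0.05 with an interval of -0.20 to 0.098. The authors' deposited table had the same numbers of receptor genes past its own adjusted p of 0.05, with 1 higher and 2 lower here, and 6 lower and 0 higher in HG+CD200Fc relative to HG.

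*Pirb* belongs to a cluster of near-identical genes on chromosome 7, so its counts are uncertain. Of its 3675 exact stretches of 150 bases, the read length, 16.9% also occur in another gene, with 12.4% in *Gm14548*, 10.5% in *Pira2* and 5.31% in *Gm15925*. *Pira2* belongs to the activating PIR-A receptors and held at most 0.342 CPM in any library. *Gm14548* held 2.02, 0.821 and 1.33 CPM in HG+CD200Fc, 3.46, 3.41 and 4.41 CPM in HG, 1.55, 1.96 and 1.55 CPM in NG+CD200Fc, and 1.14, 1.37 and 0.894 CPM in NG. It was highest in HG, as *Pirb* was, and its log2 fold change was -1.41 ± 0.28 in HG+CD200Fc relative to HG (adjusted p = 6.57e-04, edgeR's quasi-likelihood test) and 1.72 ± 0.29 in HG relative to NG (adjusted p = 7.14e-05 by the same test). Like the receptor genes, the relatives and the gene lists below were chosen with results of HG vs NG known. Their p-values in that comparison are therefore not independent of the choice. HG+CD200Fc vs HG uses the same HG libraries, so the tests and counts of these genes there carry the same limit. Nothing is read from the distance of the list counts from the shares of all genes. *Gm15448*, *Gm15922* and *Lilra6* also passed in both comparisons, higher in HG and lower in HG+CD200Fc, at group means of at most 2.8 CPM, except that *Gm15448* was lost in HG+CD200Fc vs HG without HG replicate 2 (adjusted p = 0.0535, edgeR's quasi-likelihood test). With the counts of *Pirb* and 7 relatives summed, the log2 fold change was -1.53 in HG+CD200Fc relative to HG and 1.74 in HG relative to NG. Whether reads of 1 gene were assigned to another was not tested.

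*Lilrb4a* and *Lilr4b* share 92 such stretches, 5.61% of those of *Lilrb4a* and 5.07% of those of *Lilr4b*. A readthrough gene, *Gm49339*, covers 1846 exonic bases of *Lilrb4a* and held 9 counts over all 12 libraries. With the 2 genes summed the log2 fold change was -0.71 in HG+CD200Fc relative to HG (adjusted p = 1.37e-09, edgeR's quasi-likelihood test) and 0.45 in HG relative to NG. *Pilra* overlaps 468 exonic bases of *Zcwpw1* on the opposite strand, which held 514 counts in all, and no source used here says whether counting used strand. *Sirpa*, *Cd300a*, *Cd300lf*, *Siglece* and *Pilra* share 0% of their stretches with another gene.

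The activating partners of *Pilra* are *Pilrb1* and *Pilrb2*. *Pilrb2* held 1.2, 0.918 and 0.962 CPM in HG+CD200Fc, 2.74, 1.86 and 2.36 CPM in HG, 0.595, 1.41 and 0.994 CPM in NG+CD200Fc, and 0.678, 0.978 and 0.731 CPM in NG. HG lay above every other group, and *Pilrb2* fell in HG+CD200Fc relative to HG by 1.17 on the log2 scale (adjusted p = 0.0121, edgeR's quasi-likelihood test). *Pilrb1* was 1.37 ± 0.32 higher on the log2 scale in HG than in NG (adjusted p = 0.00221, edgeR's quasi-likelihood test), and its fold change of -0.86 between HG+CD200Fc and HG did not pass (adjusted p = 0.0541). *Cd300ld*, an activating relative of *Cd300lf*, had a log2 fold change of -0.76 ± 0.11 in HG+CD200Fc relative to HG (adjusted p = 1.09e-05) and 0.41 ± 0.11 in HG relative to NG (adjusted p = 0.00534), both by edgeR's quasi-likelihood test.

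**Figure D3:**
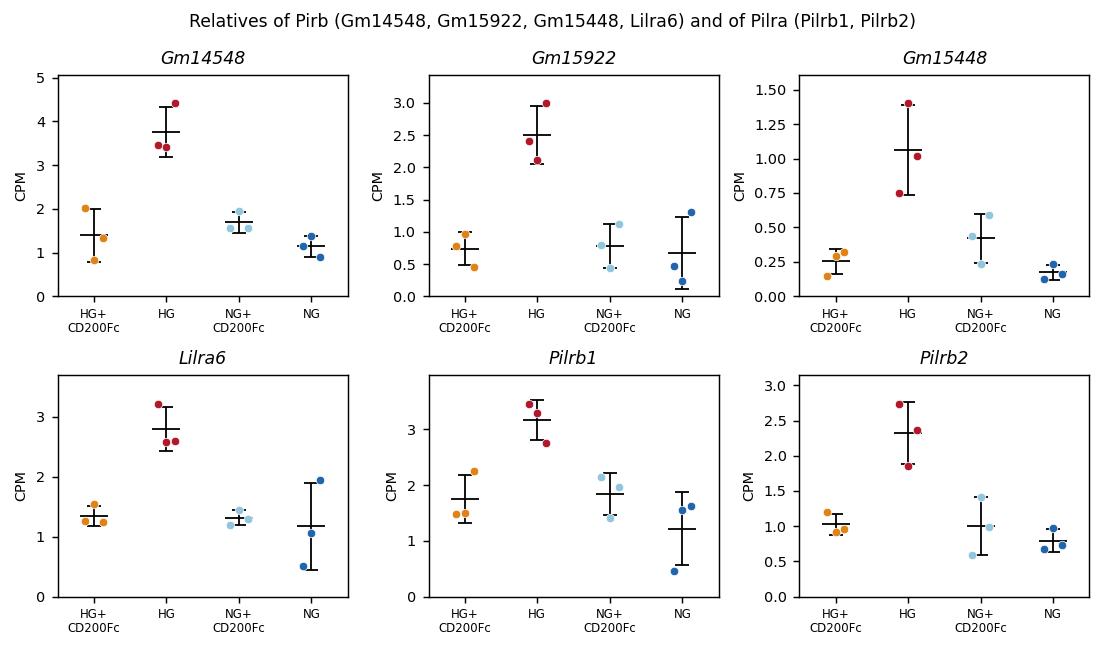
Level in CPM (vertical axes, starting at 0) of 4 relatives of *Pirb* and the 2 activating partners of *Pilra* in each library, with groups along the horizontal axis. Dots are libraries, and lines with bars are mean ± SD of 3. In each of the 6 panels the 3 HG libraries lie above all other libraries, at means between 1.06 and 3.76 CPM.

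Over the whole list of activating partner receptors, 22 of 30 names were in the counts and 16 were tested. In HG+CD200Fc relative to HG, 6 fell and 1 rose, where 8.3% of all genes fell and 9.46% rose, with a median log2 fold change of -0.45 (edgeR's quasi-likelihood test). *Clec5a*, an activating DAP12-coupled receptor, was the one that rose (0.50 ± 0.085, adjusted p = 8.89e-05, edgeR's quasi-likelihood test). In HG relative to NG, where 24.6% of all genes passed, 5 were higher and 4 lower, at a median of -0.036. *Trem2*, a lipid-sensing activating receptor of microglia, was among the lower ones, at -0.45 ± 0.064 (adjusted p = 6.60e-06, edgeR's quasi-likelihood test). Without HG replicate 2 the counts were 6 and 1 in HG+CD200Fc vs HG, and 5 higher and 2 lower in HG vs NG.

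Among 16 other inhibitory receptors tested, 5 fell and 0 rose in HG+CD200Fc relative to HG, at a median log2 fold change of -0.26, where 8.3% of all genes fell and 9.46% rose. *Fcgr2b*, the inhibitory receptor for IgG, fell by 0.88 on the log2 scale (adjusted p = 5.47e-08, edgeR's quasi-likelihood test), and *Vsir*, which encodes VISTA, fell by 0.45 (adjusted p = 2.93e-06 by the same test). In HG relative to NG, where 24.6% of all genes passed, 5 were higher and 1 lower, at a median of 0.17. *Vsir* was higher by 0.53 ± 0.06 on the log2 scale and *Fcgr2b* by 0.56 ± 0.088, while *Clec12a*, an inhibitory C-type lectin receptor gene, was lower at -0.36 ± 0.088. Without HG replicate 2, 2 were higher and 1 lower in HG vs NG, and again 5 fell in HG+CD200Fc vs HG.

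The kinases and adaptors of activating receptors, 13 genes tested, had 5 that fell and 1 that rose in HG+CD200Fc relative to HG, at a median log2 fold change of -0.18, where 8.3% of all genes fell and 9.46% rose. *Lcp2*, which encodes the adaptor SLP-76, fell by 0.42 on the log2 scale (adjusted p = 2.91e-06) and *Fcer1g* by 0.37 (adjusted p = 3.37e-05) in edgeR's quasi-likelihood test. *Plcg2*, a phospholipase that acts after Syk, rose by 0.27. In HG relative to NG, where 24.6% of all genes passed, 4 were higher and 1 lower, with *Syk*, *Src* and *Lcp2* among the higher ones. Both counts were the same without HG replicate 2.

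Of 11 genes tested for phosphatases and adaptors that inhibitory receptors recruit, 7 rose and 0 fell in HG+CD200Fc relative to HG, where 9.46% of all genes rose and 8.3% fell, at a median log2 fold change of 0.20 (edgeR's quasi-likelihood test). Among them *Csk*, the kinase that inactivates Src family kinases, rose by 0.26 and *Inppl1*, a lipid phosphatase gene, by 0.25, with adjusted p = 0.0021 and 0.00545 in edgeR's quasi-likelihood test. Of the phosphatases named above, *Ptpn11* rose by 0.15 and *Ptpn6* had a log2 difference of -0.12 that did not pass (adjusted p = 0.0372 and 0.0872 in edgeR's quasi-likelihood test). Without HG replicate 2, 5 rose, with *Ptpn11* no longer among them, and 1 fell, which was *Ptpn6*. In HG relative to NG, where 24.6% of all genes passed, 1 was higher and 2 lower. Without HG replicate 2 these counts were the same, but the higher gene was *Ptpn6* in place of *Inppl1* (adjusted p = 0.0275 and 0.0747, edgeR's quasi-likelihood test).

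Ligands of the receptors included the MHC class I genes bound by PIR-B. *H2-K1* had 413, 411 and 401 CPM in HG+CD200Fc, 681, 564 and 639 CPM in HG, 430, 425 and 472 CPM in NG+CD200Fc, and 448, 436 and 461 CPM in NG. HG lay above the 3 other groups, which overlapped or lay close together, and *H2-K1* fell by 0.62 on the log2 scale in HG+CD200Fc relative to HG (adjusted p = 2.09e-08, edgeR's quasi-likelihood test). *B2m*, the light chain of MHC class I, fell by 0.66 (adjusted p = 9.17e-09 by the same test). Of 11 ligand genes tested, 4 fell and 1 rose in HG+CD200Fc relative to HG, where 8.3% of all genes fell and 9.46% rose. In HG relative to NG, where 24.6% of all genes passed, 4 were higher and 1 lower, and these counts were the same without HG replicate 2. *Rtn4*, which encodes Nogo, was the one that rose and the one that was lower. *Cd47*, the ligand of SIRPα, fell by 0.19 on the log2 scale in HG+CD200Fc relative to HG (adjusted p = 0.0294, edgeR's quasi-likelihood test). Of 13 genes of sialic acid metabolism, which shape the ligands of Siglec-E and PILRα, 1 fell and 1 rose in HG+CD200Fc relative to HG. That is near the 8.3% of all genes that fell and the 9.46% that rose, so nothing is read from it. *Neu1*, a sialidase that removes sialic acid, was the one that fell, and *Gne*, the enzyme that opens its synthesis, the one that rose. These counts were the same without HG replicate 2. In HG relative to NG, 1 of the 13 was higher and 3 were lower, a share near the 24.6% of all genes that passed, and without HG replicate 2 the counts were 2 higher and 1 lower.

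**Figure D4:**
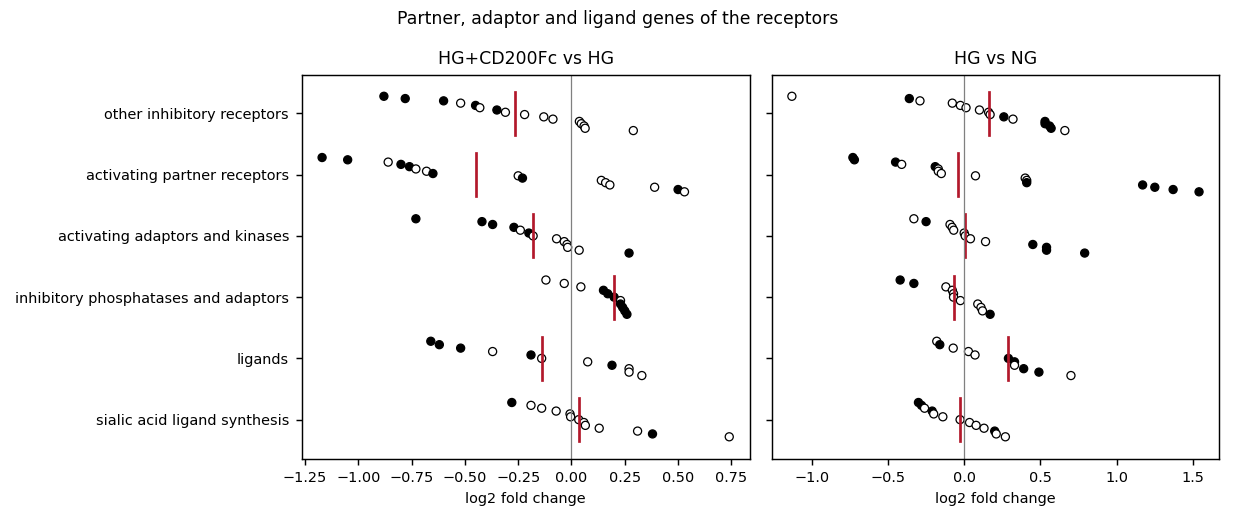
Log2 fold change (horizontal axes) of each tested gene in 6 lists around the receptors, for HG+CD200Fc vs HG on the left and HG vs NG on the right. Black points passed an adjusted p of 0.05, white points did not, and red lines mark list medians. The activating partner receptors have the lowest median in the left panel, at -0.45, and the inhibitory phosphatases and adaptors the highest, at 0.20.

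Among the genes with profiles most like that of *Pirb* over the 12 libraries, by Pearson correlation of log2 CPM, were *Marco*, *Myof* and *Parp14* (0.99 each) and *Plxnc1* (0.98). All 4 were highest in HG. *Marco*, a scavenger receptor gene, had 315, 332 and 300 CPM in HG+CD200Fc, 683, 639 and 665 CPM in HG, 311, 274 and 310 CPM in NG+CD200Fc, and 285, 266 and 280 CPM in NG. *Cd84* was among the 3 nearest genes of both *Lilr4b* (0.98) and *Lilrb4a* (0.96), and *B2m* was second for *Lilr4b* (0.97). *Cd300lf* was nearest to *Tmem106a* (0.98), *Pilra* to *Mapk3* (0.97), *Siglece* to *Ncf1* (0.96), *Sirpa* to *Notch1* (0.98) and *Cd300a* to *Akap8l* (0.95). These correlations describe shared differences between 4 groups as much as between libraries.

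**Figure D5:**
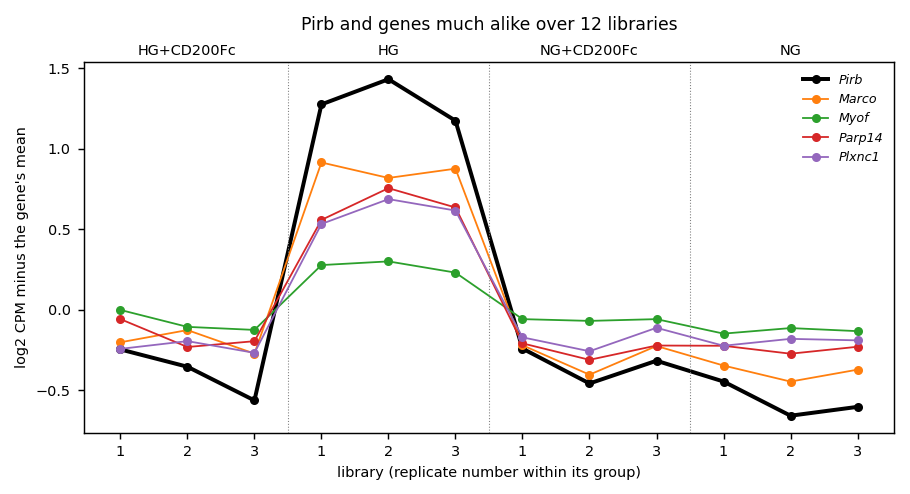
Log2 CPM minus each gene's own mean over the 12 libraries (vertical axis) for *Pirb* and 4 of the genes most like it, with libraries along the horizontal axis and dotted lines between groups. All of these genes are highest in the 3 HG libraries, and *Pirb* spans the widest range of them.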

How the data were processed

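RNA sequencing libraries, 12 in all, were labelled as BV2 cells in 4 groups of 3. The authors deposited raw counts per gene, with no normalization, and a table of log2 fold changes with p-values for their own comparisons, which was used only for its calls. The submitters' processing notes name build GRCm38 and, in no stated order, STAR, featureCounts of Subread, edgeR, limma and Salmon. Annotation release and strand setting: not given in the sources used here. Of 55774 lines, 287 repeated ones were dropped, and 99.4% of the gene IDs were in GENCODE M21, which gave coordinates and exon lengths.

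Genes were filtered with filterByExpr, which left 19182, all 8 receptor genes among them. Libraries were scaled by TMM, and 1 model of the 4 group means was fitted with edgeR 4.0.16 (robust quasi-likelihood, R 4.3.3). Benjamini-Hochberg adjustment was done within each comparison, with a threshold of 0.05 on the adjusted p. CPM are read counts scaled by library size after TMM, and log2 fold changes carry the model's standard error or 95% interval. Depths were 2.15e+07 to 3.19e+07 counts a library, without molecular identifiers.

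The receptor genes and 13 gene lists with 172 names were chosen with earlier results of these data known, so HG vs NG gives the receptor genes no p. In each list and comparison up to 4 genes with the smallest p and a mean of at least 1 CPM could be named, and *Ptpn6*, *Ptpn11*, *Pilrb1*, *Pilrb2*, *Cd300ld*, *Cd47*, *Rtn4* and the relatives of *Pirb* were named as partners outside that rule. Likeness was taken over tested genes with a mean of at least 1 CPM, without predicted genes and pseudogenes, and names the nearest 5 genes to *Pirb* and 3 to each other receptor gene as eligible. A gene eligible by these rules is not reported here.

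The model was checked on simulated counts. In HG+CD200Fc vs HG it recovered 18.8% of genes changed 1.25-fold, 57.6% of those changed 1.5-fold and 88.6% of those changed 2-fold, with 9 false calls among 18982 unchanged genes. Far more genes passed in the data, 3408 in that comparison, so the simulated recovery may be understated. Alternatives were other scalings and filters, a replicate block, DESeq2 1.42.0, limma 3.58.1 with voom, the compared groups alone, each library left out, and summed relatives. The sum of *Pirb* with 7 relatives and the comparison of HG+CD200Fc with NG were added after seeing the data.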

Additional observations from a re-analysis of the deposited data

Results flagged for a closer look

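For 5 receptor genes the test of the difference between the effects of CD200Fc in high and in normal glucose passed. The effect of CD200Fc was lower in high glucose for all 5, a direction in which 3.58% of all genes passed. The difference between the effects, on the log2 scale, was -1.91 for *Pirb*, -0.74 for *Lilr4b*, -0.91 for *Lilrb4a*, -0.97 for *Cd300lf* and -1.22 for *Pilra*. Each of the 5 passed edgeR's quasi-likelihood test in all 12 fits that left out 1 library. With *Pirb* and its relatives on chromosome 7 summed the value was -1.80, and with *Lilrb4a* and *Lilr4b* summed it was -0.79. This difference contains that between HG and NG, which was in view when the genes were chosen, so the test is not independent of the choice. Nothing is read from the count, and leaving out libraries does not remove this limit. Single values of a gene were not searched for outliers, since groups held 3 libraries.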

How the results depend on the processing

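The 6 receptor genes lower in HG+CD200Fc relative to HG and the 5 of the interaction stayed at those counts under every scaling, filter and tool and with the replicate block, and the 6 also in the fit of the 2 groups alone, which the interaction does not allow. With single libraries left out, the interaction count was 5 in all 12 fits and the other ranged over 5 to 6 with *Siglece* the gene lost. The log2 difference of *Pirb* between HG and NG ranged over 1.74 to 1.93 in all alternatives, and that of *Lilrb4a* moved to 0.45 when summed with *Lilr4b*. No value that passed changed its direction. Near 0 the sign turned for *Sirpa* in HG+CD200Fc vs HG (-0.0055 to 0.062), *Pirb* in HG+CD200Fc vs NG+CD200Fc (-0.12 to 0.039) and *Pilra* in NG+CD200Fc vs NG (-0.05 to 0.068). Of 27 other genes examined without HG replicate 2, 19 of 21 that passed in HG vs NG also passed then, and 21 of 23 in HG+CD200Fc vs HG.

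The comparison of HG+CD200Fc with NG+CD200Fc depended most on single libraries. With 1 library left out, 282 to 2271 genes passed, against 1593 with all, and 1 to 5 receptor genes. Counts of 282, 350, 644 and 668 came without HG+CD200Fc replicate 2, NG+CD200Fc replicate 3, NG+CD200Fc replicate 1 and HG+CD200Fc replicate 3. Each of these fits had fewer libraries, and the cause was not tested further. Of the genes that passed, 56% were higher, and 69.3% with upper quartile scaling. In NG+CD200Fc vs NG, 21 genes passed with no filter, 2 with the replicate block and 9 with the 2 groups alone, and 0 to 8 with 1 library left out (8 without HG replicate 1), none of them a receptor gene. Same-numbered libraries of different groups correlated at -0.0316 to 0.106 in their deviations from group means, and the numbers were not taken as pairs. Of 36 library and group combinations 17 correlated best with their own number, each out of 3 libraries. No label says whether a number marks a shared culture or day. The block turned no receptor gene's call in the 4 planned comparisons that give calls for these genes, and genes passing the interaction were 1723 with it, against 1381. Passing genes also increased with the block in HG vs NG (4720 to 5258), HG+CD200Fc vs HG (3408 to 3842) and HG+CD200Fc vs NG+CD200Fc (1593 to 2314). In HG+CD200Fc vs NG, *Siglece* passed under 6 alternatives, including without HG replicate 2 (adjusted p = 0.0251, edgeR's quasi-likelihood test), *Lilrb4a* passed when summed with *Lilr4b*, and *Pilra* was lost without HG+CD200Fc replicate 3 or NG replicate 1. Depth limits *Pirb* and *Pilra* most, at 144 to 724 counts a library. In the simulated interaction 3.03% of the smallest changes simulated were recovered, and the differences of *Cd300a*, *Sirpa* and *Siglece* were smaller still, so they may be missed. The simulation left 18982 of 19182 genes unchanged, while 1381 passed the interaction in the data. Recovery after adjustment may therefore be understated, and it was not split by expression level.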
